A study of Mus musculus with 12 samples.

Results

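The expression of 10 genes of the blood vessel lining was followed in adipose tissue of C57Bl/6 mice on chow and after 5 and 14 days of a high-fat diet (HFD). The genes were Pecam1, Cdh5, Emcn, Gpihbp1, Kdr, Flt1, Tek, Tie1, Notch4 and the Notch ligand gene Dll4. They were chosen by name, with earlier results of these data known. All 10 were measured, by 17 probe sets of the 45098 on the array. A gene is described by its main probe set, the one with the highest mean over all 12 arrays. All 10 passed the filter on low signal, so they stand among the 13312 genes tested of 18193 named.

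Chow mice ate standard chow with 13% of calories from fat throughout. The 5-day and 14-day HFD groups ate the same chow to an age of 6 weeks and then a diet with 46% of calories from fat for 5 or 14 days. Each group holds 4 samples, each on 1 single-colour Affymetrix array. All mice were group housed, with food and water freely available; sex, fat depot and how old the chow mice were when sampled are not given in the sources used here. The labels call the samples replicates without saying that each came from its own animal, so p-values measure the spread between these samples, which may be partly technical. Arrays give no counts, and their number, 4 per group, limits the precision.

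Endothelial cells line every vessel of adipose tissue and control what passes from blood to fat cells. Vascular endothelial growth factor (VEGF) binds the receptors encoded by Kdr and Flt1 and drives vessel growth, and angiopoietins bind the receptor encoded by Tek and set how stable a vessel is. VEGF signalling induces the ligand Dll4 in sprouting vessels, and Dll4 then acts through Notch receptors on neighbouring endothelial cells and restrains further sprouting. In fat, the capillary protein GPIHBP1 also carries lipoprotein lipase to the inner vessel wall, where the enzyme frees fatty acids from circulating triglycerides.

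Several arrays stood apart before any comparison. Array 4 of the 5-day group gave the highest signal of all 12 arrays for 9 of the 10 genes and lay above all 4 chow arrays for all 10. For Emcn the margin was narrow, at 10.334 against 10.33 in chow array 3. Array 2 of the 14-day group held the highest Emcn signal and lay above all chow arrays for 8 of the 10. The mean log2 signal of the 10 genes reached 11.09 in 5-day array 4 and 10.58 in 14-day array 2, where the remaining 10 arrays lay between 10 and 10.49. These arrays also had the highest excess of 3′ over 5′ signal, a control of RNA quality, for Gapdh and beta-actin, and 5-day array 4 had it at 2.83 log2 units for pyruvate carboxylase, against 1.70 to 1.91 in chow. Epididymis markers averaged between 10.90 and 11.68 in 5-day arrays 1 to 3 and 12.82 in 14-day array 4, and between 7.18 and 8.50 elsewhere. Of the 8 listed, 4 were tested. Spink8 (14.28 to 14.96) and Adam7 (13.065 to 13.894) were high in 5-day arrays 1 to 3 and 14-day array 4. Gpx5 lay between 7.82 and 8.52 in those arrays, against 7.87 to 8.48 in chow. Lcn5 stood at 8.44 in 5-day array 1, below chow array 3 at 8.78. Rnase10 lay under the filter. The part of RNA quality and of these markers in the results below was not tested beyond the fits without single arrays and with marker means as covariates.

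**Figure D1:**
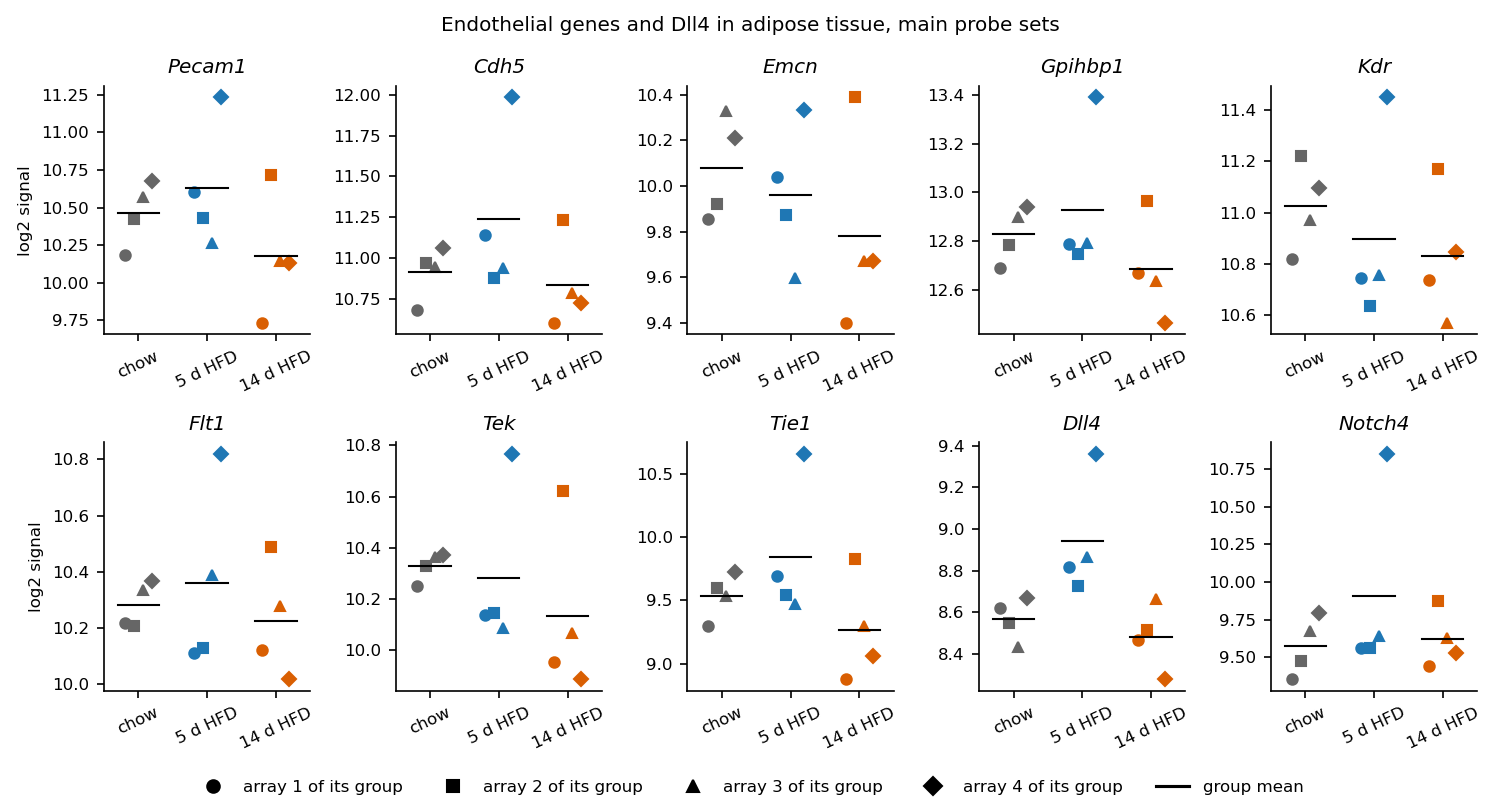
Log2 signal (vertical axes, each with its own range) of the main probe set of each gene in the 4 arrays of the chow, 5-day and 14-day HFD groups; symbols give the array number within its group and black lines the group mean. In 9 of the 10 panels 5-day array 4 is the highest point, and Dll4 is the gene whose 5-day points all lie above the 4 chow points.

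None of the 10 genes passed the test in any of the comparisons. Differences were tested with limma on the log2 signals, with p-values adjusted by Benjamini-Hochberg over all 13312 genes and calls made under 0.05. At 5 days against chow 0 of 10 were called and 0% of all genes. At an unadjusted p under 0.05, limma gave 1 of the 10 (Dll4), where 10.1% of all genes reached it. At 14 days against chow 0 of 10 were called and 0% of all genes, and 0 of 10 had an unadjusted p under 0.05, where 7.97% of all genes reached it; 0 of 10 were free of overlap with chow, as 4.63% of all genes were. At 14 against 5 days 0 of 10 were called and 0% of all genes, and 1 of 10 (Dll4 again) had an unadjusted p under 0.05, where 2.55% of all genes reached it. Each difference below is therefore a measured value with its error and not a call.

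By direction, 7 of the 10 genes were higher and 3 lower at 5 days than in chow, with a median log2 difference of 0.13, against −0.0015 over all genes tested, of which 49.5% were higher. At 14 days 9 of 10 were lower than in chow and 1, Notch4, was higher, with a median of −0.17 against 0.016 over all genes, of which 44.8% were lower. Set against 5 days, all 10 were lower at 14 days, with a median of −0.27 against 0.012 over all genes, of which 44% were lower. The balances at 5 days against chow and at 14 against 5 days rest on 5-day array 4. Without that array, 4 of 10 were higher and 6 lower at 5 days than in chow (median −0.042), and 4 were higher and 6 lower at 14 than at 5 days (median −0.073). The median at 14 days against chow was −0.274 without 14-day array 2 and −0.0935 without 14-day array 4. In whole tissue, fewer endothelial cells and less of each transcript per endothelial cell cannot be told apart.

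**Figure D2:**
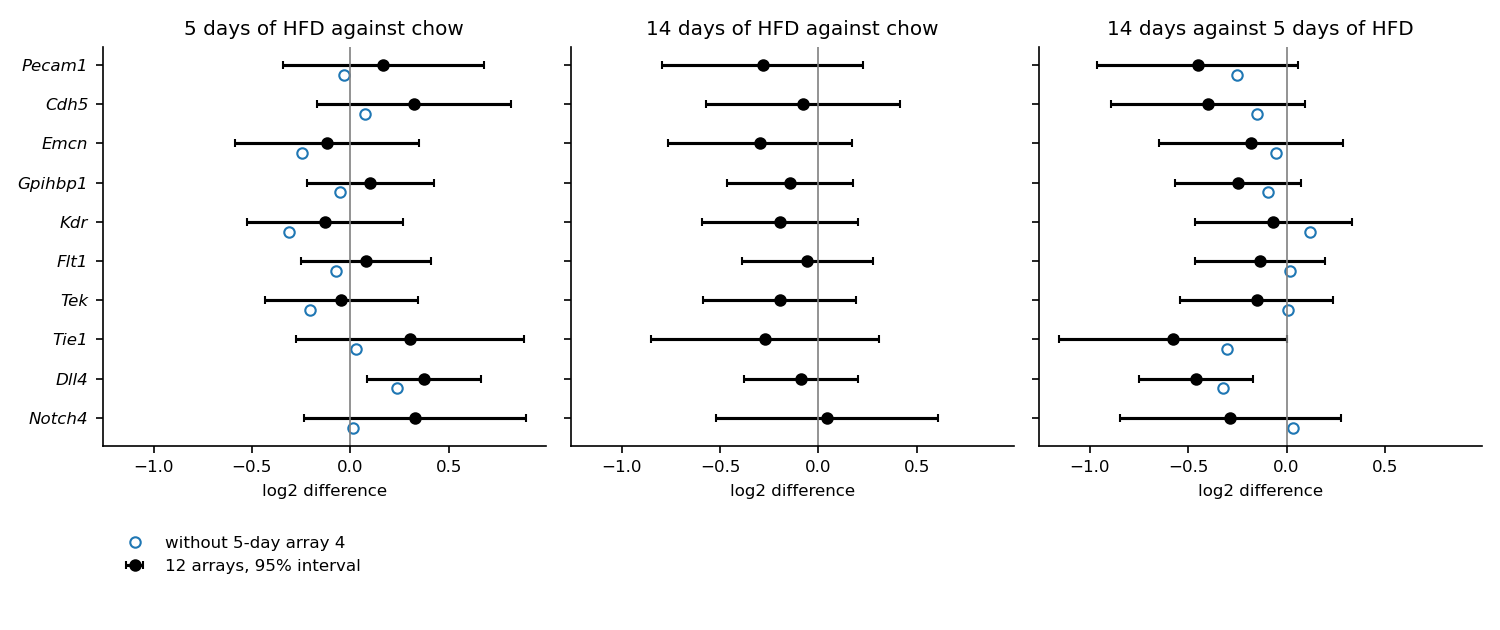
Log2 differences (horizontal axes) of the 10 genes for each of the 3 comparisons, 1 panel each, with 95% intervals from limma over 12 arrays (black). Open circles give the value without 5-day array 4, in the panels of 5 days against chow and of 14 against 5 days. Intervals that leave out 0 belong to Dll4, at 5 days against chow and at 14 against 5 days.

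Dll4, the Notch ligand of sprouting and arterial endothelium, was the gene whose groups separated. Its log2 signal was 8.62, 8.55, 8.43 and 8.67 in the chow arrays, 8.82, 8.73, 8.87 and 9.36 in the 5-day arrays and 8.47, 8.52, 8.66 and 8.28 in the 14-day arrays. Every 5-day array lay above every chow and every 14-day array, whereas chow and 14-day arrays overlapped. At 5 days Dll4 averaged 8.94 ± 0.29 against 8.57 ± 0.10 in chow (SD, n = 4 each), a log2 difference of 0.38 ± 0.13 (SE), or 1.3-fold, with a 95% interval of 0.086 to 0.664 and a limma adjusted p = 0.39. Groups also did not overlap for 11.3% of all genes, and for 6.49% in this direction. At 14 days Dll4 averaged 8.48 ± 0.16, a difference of −0.087 ± 0.13 from chow (limma adjusted p = 0.89). At 14 against 5 days it differed by −0.46 ± 0.13 (95% interval −0.751 to −0.173, limma adjusted p = 0.999), and its groups did not overlap, as in 0.924% of all genes and in 0.278% in this direction.

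The second Dll4 probe set, dimmer at a mean of 7.83, had 7.80, 7.84, 7.80 and 7.80 in chow, 7.96, 7.69, 8.10 and 8.34 at 5 days and 7.72, 7.77, 7.80 and 7.35 at 14 days. Here 5-day array 2 lay below all chow arrays, and below 3 of the 14-day arrays, so the 5-day group overlapped with both others. The differences were 0.21 ± 0.13 at 5 days against chow and −0.36 ± 0.13 at 14 against 5 days. Both probe sets thus had the same directions. Without 5-day array 4, Dll4 averaged 8.80 ± 0.071 (SD, n = 3) at 5 days, and the differences were 0.24 ± 0.092 against chow (limma adjusted p = 0.339) and −0.32 ± 0.092 at 14 against 5 days (limma adjusted p = 0.792). The groups still did not overlap in either comparison, as in 11.3% of all genes in the direction of higher at 5 days than in chow and 0.999% in the direction of lower at 14 than at 5 days.

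The Dll4 result passed the test in some other fits. With the mean of the 4 tested epididymis markers as a covariate, Dll4 differed from chow by 0.59 ± 0.097 at 5 days (limma adjusted p = 0.0195). That fit called 3.77% of all genes. For 14 against 5 days the value was −0.58 ± 0.088 (limma adjusted p = 0.0339), with 0.263% of all genes called. Among the 5-day arrays the epididymis mean was 7.18 in array 4, where Dll4 stood 0.80 above its chow mean, and 10.90 to 11.68 in the others. How far the covariate fit rests on 5-day array 4 was not tested. Without that array and without the covariate, Dll4 differed from chow by 0.24 at 5 days. With liver and skeletal muscle markers added as covariates, the values were 0.48 ± 0.13 (limma adjusted p = 0.515) and −0.61 ± 0.088 (limma adjusted p = 0.0943), and 0% of genes were called in either. With array weights, which gave 5-day array 4 a weight of 0.255 and 14-day array 4 a weight of 0.106, the differences were 0.27 ± 0.078 (limma adjusted p = 0.0359) and −0.32 ± 0.082 (limma adjusted p = 0.0241). Array weights called 15.1% and 16.6% of all genes in these comparisons.

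The Dll4 gene lies on chromosome 2 (119325784 to 119335666, GRCm38.p6). The 250 bases before its start do not hold CAGGAA, an extended form of the ETS core, and neither do those of Kdr and Flt1. Only this extended form was searched, so shorter ETS matches are not excluded. ETS factors are regulators of endothelial genes; Tie1 and Notch4, whose 5-day array 4 values stood farthest above their chow means, are shown for comparison. Sequences are from RefSeq (GRCm38.p6), written 5′ to 3′ on the strand of the gene and ending just before an annotated start, with CAGGAA or its reverse complement TTCCTG in capitals.
Dll4 (chr2:119325534-119325783, plus strand): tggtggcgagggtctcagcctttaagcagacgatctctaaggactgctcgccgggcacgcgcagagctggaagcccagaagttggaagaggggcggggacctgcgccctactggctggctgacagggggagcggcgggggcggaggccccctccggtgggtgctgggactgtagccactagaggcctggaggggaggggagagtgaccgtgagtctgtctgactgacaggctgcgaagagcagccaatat
Tie1 (chr4:118489850-118490099, minus strand): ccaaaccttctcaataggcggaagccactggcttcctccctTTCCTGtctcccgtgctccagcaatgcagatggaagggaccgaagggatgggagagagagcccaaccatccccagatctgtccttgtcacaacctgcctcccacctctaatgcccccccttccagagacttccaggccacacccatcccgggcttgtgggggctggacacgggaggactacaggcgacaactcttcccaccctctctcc
Notch4 (chr17:34564045-34564294, plus strand): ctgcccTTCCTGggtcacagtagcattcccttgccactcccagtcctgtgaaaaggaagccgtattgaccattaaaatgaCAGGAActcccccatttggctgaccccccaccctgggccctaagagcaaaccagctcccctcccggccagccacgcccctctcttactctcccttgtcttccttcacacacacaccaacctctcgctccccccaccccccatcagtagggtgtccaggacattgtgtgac

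Promoter windows were found for 7 of the 10 genes, all but Pecam1, Cdh5 and Gpihbp1. CAGGAA was present on either strand in 4 of the 7 (Tek, Tie1, Notch4 and Emcn) and in 25.7% of all 32851 windows of the same length. The RBPJ letters TGGGAA, bound by the DNA-binding partner of Notch, were present in Kdr and Tie1 and in 21.6% of all windows. The GC box GGGCGG was present in Kdr, Flt1 and Dll4 (32.7% of all windows), the SOX letters ACAAT in Tek, Notch4 and Emcn (27.7%), the E-box CANNTG in 5 of the 7 (66.2%) and the GATA letters AGATAA in none of the 7 (9.99%). One ACAAT match of Tek shares its last base with a CAGGAA match. These are letter matches in a short window and not measured binding sites.

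Notch4 (chromosome 17, 34564286 to 34588543), a Notch receptor made mainly by endothelial cells, was at 9.35, 9.47, 9.68 and 9.80 in chow, 9.56, 9.56, 9.64 and 10.85 at 5 days and 9.44, 9.87, 9.63 and 9.53 at 14 days. Apart from 5-day array 4, all values lay between 9.35 and 9.87. The difference at 5 days against chow was 0.33 ± 0.26 (limma adjusted p = 0.707), and without 5-day array 4 it was 0.012 ± 0.12. At 14 days Notch4 differed from chow by 0.044 ± 0.26. Its other probe sets, at means of 6.87 and 6.84, lay under the filter of 7.64.

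Of the wider Notch pathway, 20 of 22 listed genes were tested; 5 were higher and 15 lower at 5 days than in chow (median −0.044), 9 were higher and 11 lower at 14 days (median −0.066), and none passed. Dtx1, an E3 ligase that binds Notch, stood at 8.74 ± 0.15 at 5 days against 9.08 ± 0.15 in chow, a difference of −0.34 ± 0.11 (limma adjusted p = 0.364). Rbpj, the transcription factor of the pathway, differed by −0.15 ± 0.067 and the receptor gene Notch2 by −0.15 ± 0.071. At 14 days against chow the smallest p belonged to Adam17, a sheddase (−0.15 ± 0.05), Rfng (0.14 ± 0.058), Rbpj (−0.14 ± 0.067) and Lfng (−0.34 ± 0.16); Rfng and Lfng encode sugar transferases that modify Notch. At 14 days Lfng differed by −0.19 and Rbpj by −0.088 without 14-day array 4, and Lfng by −0.52 without array 2. Notch2 differed by −0.10 at 5 days without 5-day array 2. Nrarp, a Notch target, is named here after its values were seen. It was at 10.30, 10.34, 10.06 and 10.37 in chow, 10.64, 10.31, 10.69 and 11.29 at 5 days and 10.20, 10.75, 10.57 and 9.67 at 14 days, and its groups overlapped in each comparison. At 5 days against chow Nrarp differed by 0.46 ± 0.24. The Notch target genes Hes1, Hey1 and Heyl of the same list were lower, by −0.08 ± 0.24, −0.039 ± 0.10 and −0.0445 ± 0.18.

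**Figure D3:**
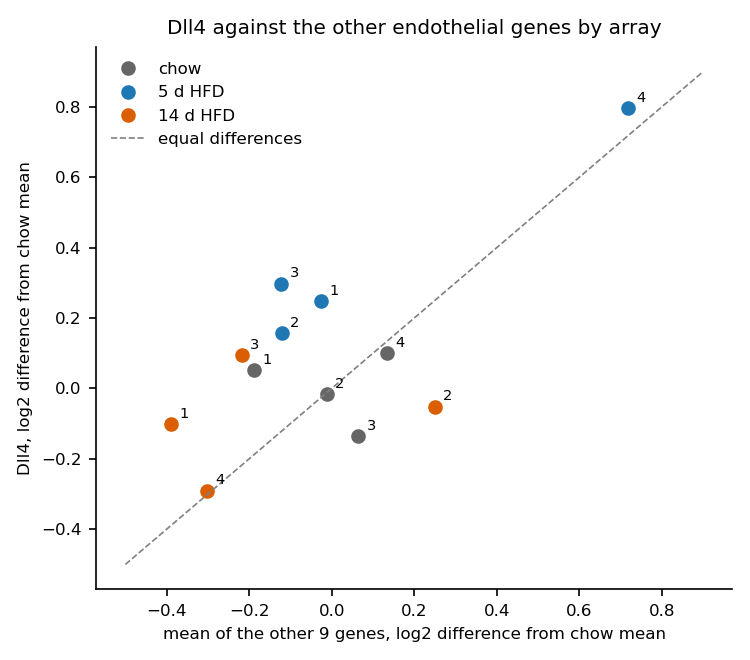
Log2 difference of Dll4 from its chow mean (vertical axis) against the mean of the same difference over the other 9 genes (horizontal axis), 1 point per array, numbered within its group; the dashed line marks equal differences. All 5-day points lie above the line, by 0.079 to 0.42, and chow and 14-day points lie on both sides of it.

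Over the 12 arrays Dll4 had a mean r of 0.624 with the other 9 genes, the lowest of the 10, next to 0.68 for Emcn and 0.699 for Kdr. Its r was 0.794 with Tie1 and 0.282 with Emcn. In 5-day arrays 1 to 3 it stood 0.25, 0.16 and 0.30 above its chow mean, while the mean of the other 9 stood 0.025, 0.121 and 0.122 below theirs. In 5-day array 4 Dll4 was 0.80 and the other 9 were 0.72 above chow. The gap between Dll4 and the other 9 averaged 0 ± 0.18 in chow (0 by construction), 0.26 ± 0.14 at 5 days and 0.078 ± 0.29 at 14 days (SD, n = 4 each). Gaps of similar size were found for other genes: measured the same way at 5 days, it was −0.30 ± 0.06 for Kdr, −0.29 ± 0.24 for Emcn, 0.21 ± 0.28 for Notch4 and 0.20 ± 0.14 for Cdh5. The gap was not tested, since the genes were chosen with results known.

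Tek and Tie1 encode the paired Tie receptors, of which Tek binds angiopoietins and Tie1 modulates it. Tie1 (chromosome 4, 118471191 to 118489849) was at 9.30, 9.60, 9.53 and 9.72 in chow, 9.69, 9.55, 9.47 and 10.66 at 5 days and 8.88, 9.83, 9.30 and 9.06 at 14 days. The lowest and the highest of these arrays belonged to the 14-day and 5-day groups, and all groups overlapped. Tie1 had the largest size of difference of the 10 genes at 14 against 5 days, −0.58 ± 0.26 (limma adjusted p = 0.999), which was −0.30 ± 0.20 without 5-day array 4. Against chow it differed by 0.30 ± 0.26 at 5 days and by −0.27 ± 0.26 at 14 days, the second being −0.46 without 14-day array 2 and −0.14 without 14-day array 1.

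Tek (chromosome 4, 94739086 to 94874976) was tight in chow, at 10.25, 10.33, 10.36 and 10.37. It was at 10.14, 10.14, 10.09 and 10.77 at 5 days and 9.95, 10.62, 10.07 and 9.89 at 14 days. In both HFD groups 3 of the 4 arrays lay below all chow arrays and 1 lay above them all. The differences from chow were −0.046 ± 0.18 at 5 days and −0.20 ± 0.18 at 14 days, with limma adjusted p = 0.95 and 0.811. Tek at 14 days differed by −0.36 without array 2 and by −0.12 without array 4. Without 5-day array 4 the 5-day difference was −0.21 ± 0.15 and the 5-day and chow groups did not overlap, as in 13.1% of all genes in that direction.

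The angiopoietin genes were among the VEGF and angiopoietin genes of smallest p. Angpt2, whose product loosens vessels, stood at 8.25 ± 0.072 at 5 days against 7.90 ± 0.20 in chow (SD, n = 4 each), a difference of 0.35 ± 0.09 (limma adjusted p = 0.336). Angpt1, whose product stabilises vessels through Tek, stood at 10.19 ± 0.17 against 10.65 ± 0.19, a difference of −0.45 ± 0.19 (limma adjusted p = 0.459), and at 14 days at 9.94 ± 0.43, a difference from chow of −0.70 ± 0.19 (limma adjusted p = 0.472). For both genes, of the 12 tested in their list, the 5-day and chow arrays did not overlap, as in 11.3% of all genes. Angpt2 lay between 8.18 and 8.33 at 5 days against 7.65 to 8.05 in chow, and Angpt1 between 10.05 and 10.38 at 5 days against 10.40 to 10.83 in chow.

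Of 14 listed VEGF, angiopoietin and apelin genes, 12 were tested; 3 were higher and 9 lower at 5 days and likewise at 14 days, with medians of −0.09 and −0.19 against chow, and none passed. The apelin receptor gene Aplnr, an endothelial gene, differed by 0.88 ± 0.39 at 5 days (limma adjusted p = 0.487); array 4 stood at 12.07, where the other 5-day arrays had 9.83 to 10.37 and chow had 9.59 to 9.90. At 14 days Flt4, the lymphatic VEGF receptor, differed by −0.32 ± 0.15, Angpt2 by 0.17 ± 0.09 and Vegfd by −0.26 ± 0.14. Vegfd differed by −0.097 without 14-day array 4, Angpt2 by 0.09 without chow array 1, and Aplnr at 5 days by 0.40 without 5-day array 4.

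Kdr (chromosome 5, 75932827 to 75979072), the main signalling receptor for VEGF, was at 10.82, 11.22, 10.97 and 11.10 in chow, 10.75, 10.63, 10.76 and 11.45 at 5 days and 10.74, 11.17, 10.57 and 10.85 at 14 days. Arrays 1 to 3 of the 5-day group lay below all chow arrays and array 4 above them. The differences from chow were −0.13 ± 0.18 at 5 days (95% interval −0.527 to 0.269) and −0.20 ± 0.18 at 14 days, with limma adjusted p = 0.851 and 0.816. Kdr at 14 days differed by −0.31 without array 2 and by −0.11 without array 3. Without 5-day array 4 the 5-day difference was −0.31 ± 0.14 (limma adjusted p = 0.378). The value at 14 against 5 days was −0.067 ± 0.18, and 0.12 ± 0.14 without that array.

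Flt1 (chromosome 5, 147561604 to 147726438), a VEGF receptor that binds VEGF tightly and limits its action on Kdr, had 4 probe sets. The main one was at 10.22, 10.21, 10.34 and 10.37 in chow, 10.11, 10.13, 10.39 and 10.82 at 5 days and 10.12, 10.49, 10.28 and 10.02 at 14 days, with all groups overlapping. Its differences from chow were 0.08 ± 0.15 at 5 days and −0.057 ± 0.15 at 14 days. The other probe sets of Flt1 differed by 0.013 to 0.081 at 5 days and by −0.13 to −0.024 at 14 days, in the same directions as the main one. All 4 were highest in 5-day array 4.

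Pecam1 and Cdh5 encode adhesion proteins of the junctions between endothelial cells. Pecam1 (chromosome 11, 106654213 to 106715281) was at 10.19, 10.42, 10.57 and 10.68 in chow, 10.60, 10.43, 10.27 and 11.23 at 5 days and 9.73, 10.72, 10.14 and 10.13 at 14 days. Arrays 1, 3 and 4 of the 14-day group lay below all chow arrays and array 2 above them. Pecam1 averaged 10.18 ± 0.41 at 14 days against 10.47 ± 0.21 in chow (SD, n = 4 each), a difference of −0.28 ± 0.23 with a 95% interval of −0.794 to 0.225. That difference was −0.46 without 14-day array 2 and −0.13 without 14-day array 1. At 14 against 5 days it differed by −0.45 ± 0.23 (limma adjusted p = 0.999), and by −0.25 ± 0.20 without 5-day array 4.

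Cdh5 (chromosome 8, 104101613 to 104144504), the cadherin of those junctions, was at 10.69, 10.97, 10.94 and 11.06 in chow, 11.14, 10.88, 10.94 and 11.98 at 5 days and 10.60, 11.24, 10.79 and 10.72 at 14 days. It differed from chow by 0.32 ± 0.22 at 5 days (limma adjusted p = 0.657) and by −0.077 ± 0.22 at 14 days (limma adjusted p = 0.944). The 5-day value was 0.073 ± 0.15 without array 4. The second Cdh5 probe set differed by 0.10 ± 0.12 and −0.25 ± 0.12, the same directions with a larger size at 14 days.

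Emcn (chromosome 3, 137341062 to 137431069), a sialoglycoprotein of capillary and venous endothelium, was at 9.86, 9.92, 10.33 and 10.21 in chow, 10.04, 9.88, 9.60 and 10.33 at 5 days and 9.40, 10.39, 9.67 and 9.67 at 14 days. It was the 1 gene of the set not highest in 5-day array 4, and 3 of its 14-day arrays lay below all chow arrays. The difference at 14 days against chow was −0.30 ± 0.21 (95% interval −0.765 to 0.17, limma adjusted p = 0.762), with −0.50 without 14-day array 2 and −0.17 without array 1. At 5 days it was −0.12 ± 0.21.

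Gpihbp1 (chromosome 15, 75596630 to 75598213) was at 12.69, 12.79, 12.90 and 12.94 in chow, 12.79, 12.75, 12.79 and 13.39 at 5 days and 12.67, 12.97, 12.64 and 12.46 at 14 days. Arrays 1 to 3 of the 5-day group lay inside the chow range, and the 5-day difference was 0.10 ± 0.15 with array 4 and −0.052 ± 0.11 without it. At 14 days the difference from chow was −0.14 ± 0.15 (95% interval −0.466 to 0.177, limma adjusted p = 0.838), with −0.24 without array 2 and −0.071 without array 4.

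**Figure D4:**
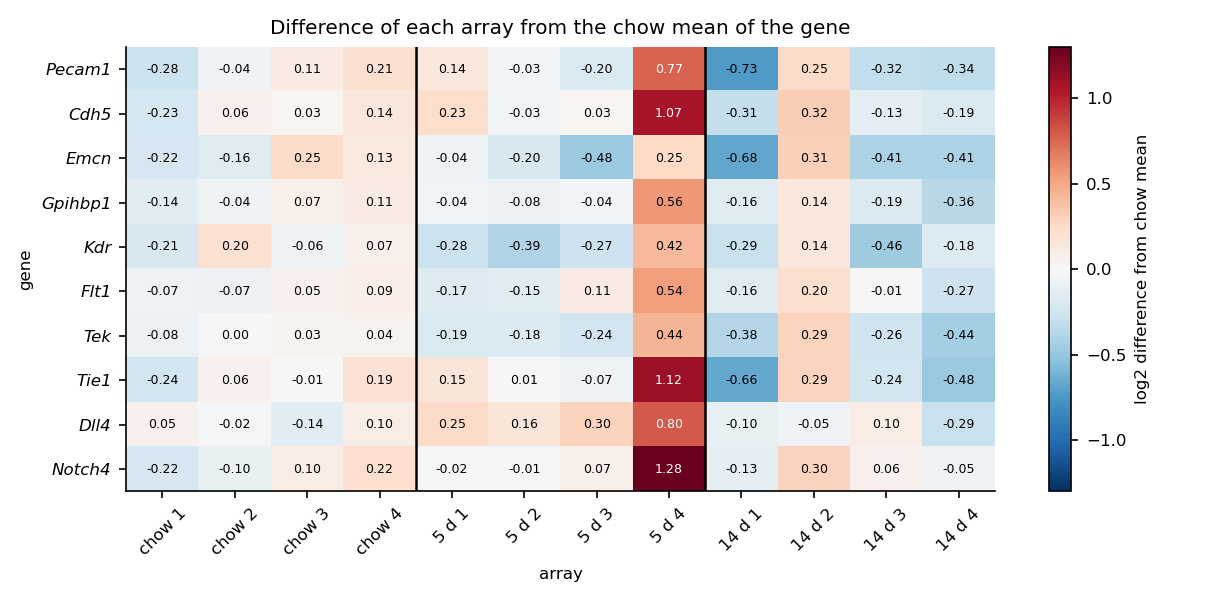
Log2 difference of every array (columns) from the chow mean of each gene (rows), red above and blue below, with the value printed in each cell. The column of 5-day array 4 is above the chow mean for all 10 genes, 14-day arrays 1 and 4 are below it for all 10, and 14-day array 2 is above it for 9.

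Array weights changed the 14-day picture as well as that of Dll4. They called 5 of the 10 genes lower at 14 days than in chow, in a fit that called 22.4% of all genes. These were Pecam1 (−0.60 ± 0.16), Emcn (−0.57 ± 0.16), Tie1 (−0.52 ± 0.16), Kdr (−0.33 ± 0.11) and Tek (−0.31 ± 0.094), with limma adjusted p between 0.0254 and 0.0478. The weights were 3.54, 0.376, 1.28 and 0.106 for 14-day arrays 1 to 4, and array 1, with the highest of them, was the lowest of the 12 arrays for the mean of the 10 genes. For 14 against 5 days the weights called 3 of the 10 lower, Pecam1 (−0.62 ± 0.17), Tie1 (−0.61 ± 0.17) and Dll4, where 16.6% of all genes were called. Without both HFD arrays numbered 4, limma called 0 of the 10 in each comparison, while it called 6.62% of all genes at 5 days against chow, 0.00751% at 14 days against chow and 5.43% at 14 against 5 days.

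The mean of 30 further endothelial genes, all tested, was highest in the same arrays as that of the set. It was 11.04 in 5-day array 4, 10.86 in 14-day array 2 and 10.18 to 10.70 in the others. By gene, 20 of the 30 were highest of all arrays in 5-day array 4 and 22 lay above all chow arrays there, while 3 (Podxl, Sox7 and Thbd) lay below them. In 5-day arrays 1, 2 and 3, 14, 16 and 19 of the 30 lay below all chow arrays and 1, 0 and 2 above them. In 14-day arrays 1, 3 and 4, 24, 19 and 22 lay below them and 1, 1 and 0 above. In 14-day array 2, 24 lay above and 2 below. At 5 days against chow 13 were higher and 17 lower, with a median of −0.038. At 14 days 28 of 30 were lower, with a median of −0.19, where 44.8% of all genes were lower; 0 passed, and 2 of 30 did not overlap with chow in that direction, as in 2.26% of all genes. The genes of smallest p at 5 days were the sialomucin gene Podxl (−0.58 ± 0.17), the tight junction gene Cldn5 (0.58 ± 0.28) and the transcription factor gene Sox7 (−0.42 ± 0.20), with limma adjusted p = 0.347, 0.514 and 0.516. At 14 days they were Cd34, a sialomucin shared with adipocyte progenitors (−0.50 ± 0.21), Podxl (−0.36 ± 0.17), the thrombomodulin gene Thbd (−0.39 ± 0.19) and Clec14a (−0.26 ± 0.15). Without 14-day array 4, the array of high epididymis markers, Cd34 differed by −0.24 and Thbd by −0.14. Without 14-day array 2, Podxl differed by −0.56 and Clec14a by −0.39, and without 5-day array 4 the 5-day difference of Cldn5 was 0.34.

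The genes whose pattern over the 12 arrays was most like the mean of the 10 were Esam, Cd93, Aqp1, Btbd3 and Afap1l1, with Pearson's r between 0.974 and 0.99 and Spearman's rho between 0.944 and 0.993. Esam encodes an endothelial adhesion molecule, Cd93 a lectin-like receptor of endothelium and Aqp1 a water channel of capillaries. For Dll4 alone they were Mxd4, Tnc, Col4a1, Atp9b and Trp53i11, with r between 0.904 and 0.928 and rho between 0.748 and 0.839; Col4a1 encodes a chain of basement membrane collagen and Tnc the matrix protein tenascin C. The lists for the mean and for Dll4 shared no gene. Every gene of both lists was highest in 5-day array 4, and r for these genes was not computed without that array. Over the 45 pairs of the 10 genes r had a median of 0.794 and ran from 0.282 to 0.971. Without 5-day array 4 the median was 0.644 and the range −0.332 to 0.957. These arrays share tissue makeup and RNA quality, so the values describe this set of 12 arrays and carry no test.

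**Figure D5:**
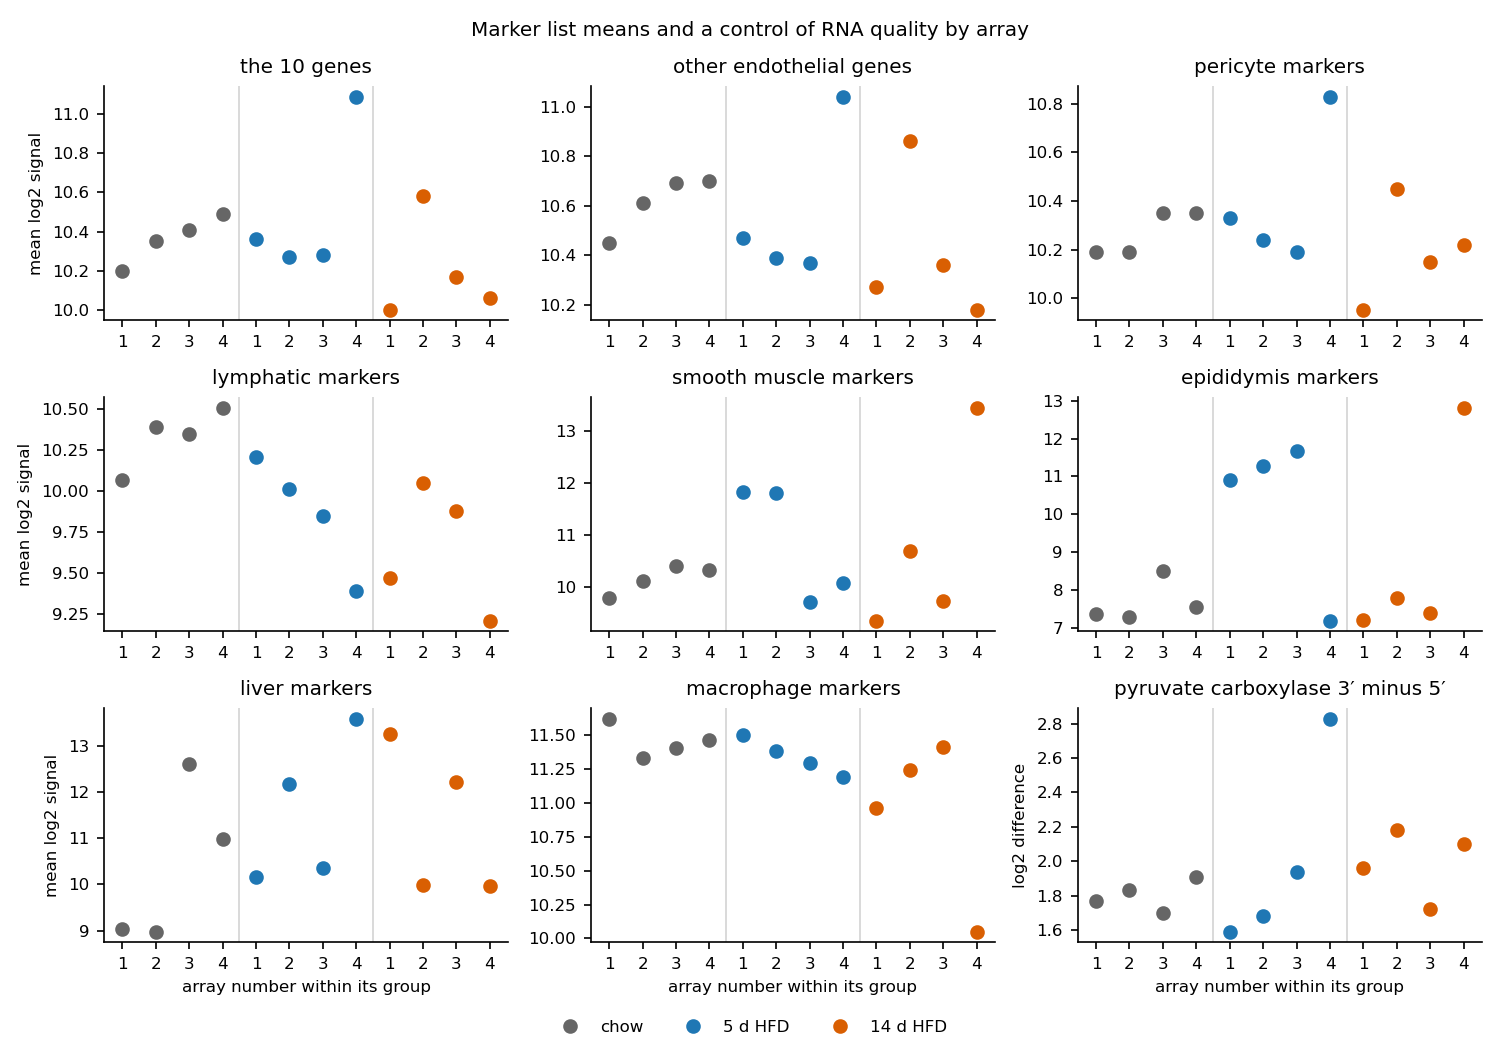
Mean log2 signal of the 10 genes and of marker lists (vertical axes, each with its own range), and the 3′ minus 5′ log2 difference of the pyruvate carboxylase control, in each array of the 3 groups. The 10 genes, the other endothelial genes, the pericyte markers and the control are all highest in 5-day array 4, while lymphatic markers are low in that array.

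Markers of other vessel cells were set beside the set by array. Pericyte markers, of the cells that wrap capillaries, averaged 10.83 in 5-day array 4 and 9.95 to 10.45 elsewhere, and all 8 were tested with none passing. Smooth muscle markers averaged 13.44 in 14-day array 4 and 11.82 and 11.80 in 5-day arrays 1 and 2, against 9.79 to 10.40 in chow, and so did not follow the 10 genes. Lymphatic endothelial markers averaged 10.33 ± 0.19 in chow, 9.86 ± 0.35 at 5 days and 9.65 ± 0.38 at 14 days (SD, n = 4 each). All 5 lymphatic markers tested were lower in both HFD groups than in chow (medians −0.49 and −0.58), and none passed. Their mean in 5-day array 4 was 9.39, below all chow arrays, where the 10 genes were highest. Lyve1 and Pdpn of this list are also made by macrophages and mesothelium, Flt4 also stands in the VEGF list, and Prox1, the defining lymphatic factor, lay under the filter, between 6.65 and 7.09. Arterial markers (4 tested) had medians of −0.025 and −0.045 and venous markers (6 tested) −0.16 and −0.15 at 5 and 14 days against chow, with none passing. At 5 days 2 arterial markers were higher and 2 lower, and 2 venous markers were higher and 4 lower. The arterial Efnb2 differed by 0.46 ± 0.26 (limma adjusted p = 0.576) and the venous Selp by 0.41 ± 0.13 (limma adjusted p = 0.366). Every 5-day array lay above every chow array for Efnb2, as in 6.49% of all genes in this direction.

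Liver markers averaged 13.59 in 5-day array 4 and 13.26 in 14-day array 1, the highest and the lowest arrays for the mean of the 10 genes, and 8.98 to 12.60 elsewhere. Markers of skeletal muscle stood at 12.42 in 5-day array 2 and 12.77 in chow array 3, with 8.26 to 9.36 elsewhere. Adipocyte markers lay between 13.28, in 14-day array 4, and 13.86. Macrophage markers averaged 10.05 in 14-day array 4 and 10.96 to 11.62 elsewhere. Mesothelial markers averaged 9.76 in 5-day array 4 and 10.08 to 10.86 elsewhere. That mean holds the keratin genes Krt8, Krt18 and Krt19, which were highest in 14-day array 4 (12.60, 12.5 and 11.10). The rest of the list (Wt1, Msln, Upk3b, Lrrn4, Bnc1, Gpm6a and Upk1b) was lowest in 14-day array 4, gene by gene. Markers of adipocyte progenitors and fibroblasts averaged 11.38 in 14-day array 4 and 11.78 to 12.26 elsewhere. The part of these tissues in the endothelial values was not tested apart from the covariate fits.

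The partners of Gpihbp1 in fatty acid supply formed a list of 14 genes, of which 13 were tested. At 5 days against chow 10 were higher and 3 lower (median 0.10), and at 14 days 7 were higher and 6 lower (median 0.011); none passed. The fatty acid transport genes Slc27a4 and Slc27a1 had the smallest p at 5 days. Slc27a4 stood at 10.39 ± 0.045 at 5 days against 10.06 ± 0.069 in chow (SD, n = 4 each), a difference of 0.33 ± 0.10, and at 10.36 ± 0.24 at 14 days, a difference from chow of 0.30 ± 0.10. Slc27a1 differed by −0.36 ± 0.11 at 5 days and −0.19 ± 0.11 at 14 days, and the fatty acid binding protein gene Fabp5 by 0.46 ± 0.18 and 0.36 ± 0.18. The adipogenic factor gene Pparg differed by −0.29 ± 0.16 at 14 days. Without 14-day array 4, the 14-day differences were −0.10 for Pparg, 0.19 for Slc27a4, −0.12 for Slc27a1 and 0.56 for Fabp5. Without 14-day array 2 that of Slc27a1 was −0.30, and without array 3 that of Fabp5 was 0.21. Limma adjusted p lay between 0.354 and 0.713 for these values. Lpl, the lipase itself, was near the top of the scale in all arrays, between 14.94 and 15.13, where differences may be compressed.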

How the data were processed

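The deposited table holds 1 value per probe set and array. The deposited values are taken to be on the log2 scale, since they run from 4.18 to 15.5 with array medians of 8.09 to 8.14. Per the labels' protocols, total RNA was converted with a T7-oligo(dT) primer into biotin-labelled RNA for Affymetrix arrays. The authors' probe summary and normalization are not given in the sources used here, and nothing was renormalized.

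Of 45098 probe sets, 61 were controls, 34945 carried 1 gene symbol in the platform annotation, 932 several and 9160 none. Of the 1-symbol probe sets 34741 matched RefSeq (GRCm38.p6) by Entrez ID. Each gene was represented by its brightest probe set, and genes whose mean fell short of 7.64 log2, the 40th percentile over probe sets, were dropped. One model in limma 3.58.1 (R 4.3.3; eBayes with trend, two-sided) held all 12 arrays, and the procedure was tested on simulated data. Intervals are 95% and come from limma's moderated spread.

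The 10 genes, the gene lists and the alternatives were chosen with earlier results of these data known. Named genes beyond the 10 were the 3 of smallest p at 5 days and the 4 at 14 days against chow in each of 4 lists, and the 5 most like the mean of the 10 and Dll4. Nrarp, Hes1, Hey1, Heyl, Lpl, Prox1, Lyve1, Pdpn, Efnb2, Selp and the named mesothelial and epididymis genes stand outside that rule. Alternatives changed normalization, filter, probe set rule, variance model, arrays in the fit, covariates, threshold and replicate block.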

Additional observations from a re-analysis of the deposited data

Results flagged for a closer look

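Within a group of 4, one array lay far from the other 3 in 10 of 81 sets of values looked at, where chance gives about 1 in 20. In 5-day array 4 this held for Kdr (11.45, the nearest other 5-day array at 10.76), Tek (10.77, nearest 10.14), Notch4 (10.85, nearest 9.64) and Gpihbp1 (13.39, nearest 12.79). It held in the same array for the mean log2 signal of the 10 genes (11.09, nearest 10.36), of the other endothelial genes (11.04, nearest 10.47) and of the lipoprotein lipase list (12.34, nearest 11.90). These flags share 1 array and are not independent. Outside that array, the adipocyte marker mean of chow array 1 (13.82, nearest 13.68), the epididymis marker mean of 14-day array 4 (12.82, nearest 7.79) and the skeletal muscle marker mean of chow array 3 (12.77, nearest 8.46) stood apart.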

How the results depend on the processing

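Limma called 0 of 13312 genes and 0 of the 10 in each comparison, and the cause of the changes below was not tested. Array weights called 2015, 2981 and 2212 genes and 1, 5 and 3 of the 10 in the 3 comparisons (5 days and 14 days each set against chow, then 14 against 5 days). They turned Flt1 to −0.0842 and Gpihbp1 to −0.0383 at 5 days and Notch4 to −0.0853 at 14 days. The epididymis covariate called 502 genes at 5 days and 35 at 14 against 5 days, in both 1 of the 10 (Dll4). It turned Kdr to 0.0219, Tek to 0.177 and Emcn to 0.0024 at 5 days, and Cdh5 to 0.0331, Flt1 to 0.0288 and Dll4 to 0.00556 at 14 days. The 3 covariates turned Kdr to 0.0549, Tek to 0.355 and Emcn to 0.245 at 5 days, and Cdh5 to 0.0355, Tek to 0.0893, Notch4 to −0.0074 and Emcn to 0.047 at 14 days. Fitting only chow and 5-day arrays called 213 genes. Without both HFD arrays numbered 4, 881, 1 and 723 genes were called, and 0 of the 10. That fit turned Pecam1 to −0.0322, Flt1 to −0.0736 and Gpihbp1 to −0.0522 at 5 days, Flt1 to 0.0131 at 14 days, and Kdr to 0.112, Flt1 to 0.0867, Tek to 0.0917 and Notch4 to 0.0617 at 14 against 5 days.

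As each array was left out in turn, 0 to 123 genes were called at 5 days (123 without 14-day array 4), 0 to 20 at 14 days (20 without 14-day array 2) and 0 of the 10 in any such fit. The median over the 10 ran from −0.0422 to 0.219, −0.274 to −0.0935 and −0.376 to −0.0734 in the 3 comparisons. At 5 days Pecam1 ran from −0.0322 to 0.291, Flt1 from −0.0736 to 0.163, Tek from −0.207 to 0.0203, Emcn from −0.243 to 0.00267 and Gpihbp1 from −0.0522 to 0.162. At 14 days Cdh5 ran from −0.21 to 0.00125, Flt1 from −0.144 to 0.0131 and Notch4 from −0.0417 to 0.117. At 14 against 5 days Kdr ran from −0.18 to 0.118, Flt1 from −0.223 to 0.0171, Tek from −0.315 to 0.00967 and Notch4 from −0.4 to 0.0312. Dll4 ran from 0.235 to 0.448 at 5 days and from −0.535 to −0.322 at 14 against 5 days, with no change of direction. Values of named genes outside the 10 without single arrays were added after seeing the data.

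Replicate numbers are shared by the groups, but deviations of same-numbered arrays correlated from −0.725 to 0.408. In the 3 comparisons, 0, 2 and 0 of 8 arrays correlated best with their own number. These values do not show a pairing and cannot exclude one, since tissue makeup also differs between arrays. With the replicate block 0 genes and 0 of the 10 were called in each comparison, and the medians were 0.135, −0.17 and −0.265. Other normalizations, filters, probe set rules and variance models, and a threshold of 0.1, called 0 of the 10 in each comparison.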
